A study of Mus musculus with 12 samples.

Results

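The immediate early genes examined here are 9 genes, Egr1, Egr3, Fos, Fosb, Fosl1, Jun, Junb, Ier2 and Ier3, taken by their symbols from a table of RNA-seq read counts for 24495 genes. They were chosen by the measured level of Egr1, which was lower in the knockdown line at Day 0, and as a family around it. The cells were CCE-Nanog-GFP mouse embryonic stem cells (mESCs), a stem cell line that carries a GFP reporter of Nanog, and GFP+ cells were sorted before experiments. The control line, shSC, carries a scrambled shRNA and is labelled scr or WT, and the knockdown line, shCTSL, carries an shRNA against the protease cathepsin L and is labelled CTSL KD. Both shRNAs came from a stably integrated lentivirus under drug selection, and 1 shCTSL line was sequenced, so the hairpin and the line cannot be told apart from the loss of cathepsin L. Each line was collected undifferentiated with LIF (Day 0) and as rotating embryoid bodies without LIF and with retinoic acid (Day 2 and Day 4), giving 6 groups of 2 biological replicates. The medium was replaced every other day, and the sources used here do not give the time from the last change, or from the sort, to RNA extraction.

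Immediate early genes are transcribed within minutes of a growth factor, serum or stress signal, from transcription factors already present in the cell, and their mRNAs are short-lived. EGR proteins are zinc finger factors that bind GC-rich sites. FOS proteins pair with JUN proteins, which can also pair with each other, to form AP-1, and IER2 and IER3 are small early response proteins. In stem cells the same signals pass through the ERK kinases, whose activity favours the exit from pluripotency.

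The libraries held 11171111 to 27155553 counts, and 8 of the 9 members passed the filter on low counts, as did 15532 genes in all. Fosl1, with 0 to 5 reads a library, did not pass. Values below are CPM, counts scaled to a common library size by TMM, with replicate 1 before replicate 2, and a gene was called changed at an adjusted p under 0.05 and at least 1.5-fold. The 2 shCTSL Day 2 libraries stood apart from each other: the SD of the log2 ratio between replicates over genes was 0.652 there and 0.176 to 0.246 in the other 5 groups. Replicate 1 of that pair also had the most reads on the ribosomal gene Rn45s, at 3.43% of its counts, against 0.17% to 1.43% elsewhere. The targeted gene Ctsl was at 137 and 147 CPM in shSC and at 39.2 and 37.5 CPM in shCTSL at Day 0, so that log2 of the fold change was −1.89 ± 0.15 (SE) with an adjusted p of 0.00246. Its difference was −1.06 ± 0.14 at Day 2 (adjusted p = 0.0342) and −0.83 ± 0.14 at Day 4 (adjusted p = 0.0896). At Day 4 it did not pass after adjustment over all genes tested, with levels of 483 and 423 CPM in shSC and 257 and 253 CPM in shCTSL. The 6 pluripotent cell markers summed to 5415 to 5470 CPM in shSC and 5121 to 5122 CPM in shCTSL at Day 0 and to 313 to 381 CPM in either line at Day 4, and the sum of 6 endoderm markers in shSC went from 8.76 to 9.35 CPM at Day 0 to 399.5 to 413 CPM at Day 4. No gene of the pluripotent, endoderm, mesoderm, neural or endothelial and blood marker lists was called between the lines at Day 2 or Day 4. Of all genes 0.0644% and 0.0129% were called in these comparisons. At Day 2 the median log2 differences of these lists, in that order, were −0.08, −0.02, −0.32, 0.28 and −1.24, against 0.02 over all genes. At Day 4 they were −0.10, 0.002, 0.03, −0.23 and −0.30, against −0.005. In bulk RNA, fewer cells that express a gene and less RNA per cell cannot be told apart.

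The order of the family changed in both lines between mESCs and embryoid bodies. Retinoic acid, the absence of LIF, embryoid body culture and time changed together and cannot be told apart. Jun rose over 10-fold and Junb fell by Day 2, while Egr1, Fos, Fosb and Ier3 rose between Day 2 and Day 4. Egr1 stood at 54.8 and 71.5 CPM in shSC mESCs and at 4.98 to 15.7 CPM in the embryoid bodies of both lines. Between shCTSL and shSC no member passed the test at Day 2 or Day 4.

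**Figure D1:**
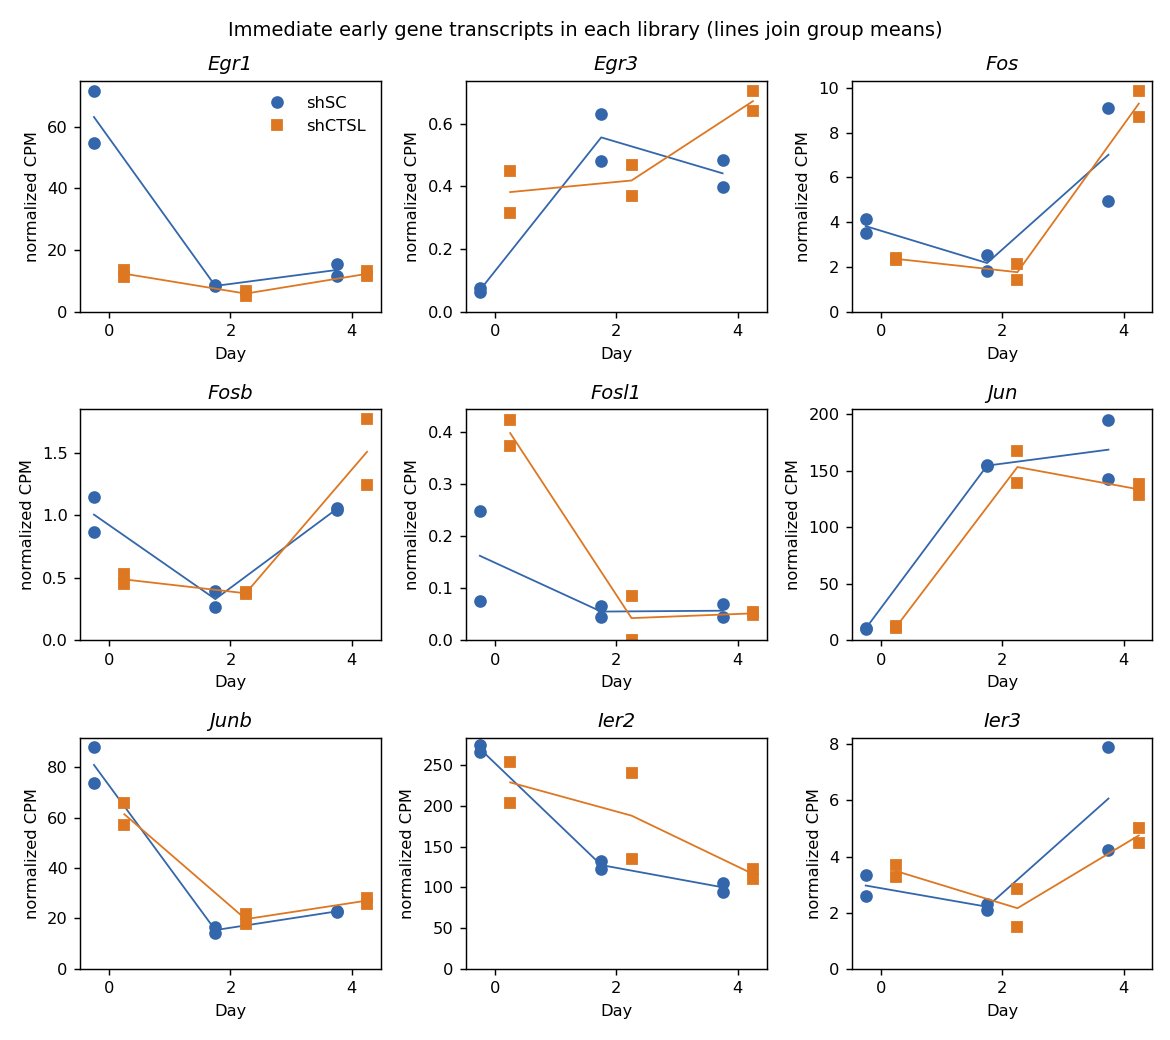
Normalized CPM (y axes, linear and from 0) of each immediate early gene at Day 0, 2 and 4 (x axes) in shSC (circles) and shCTSL (squares), 1 point per library, with lines through the group means. Egr1 in the shSC Day 0 libraries sits at 54.8 and 71.5 CPM, above the other 10 libraries, and Jun climbs from 10.4 to 12.3 CPM at Day 0 to 129 to 195 CPM at Days 2 and 4.

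Egr1 encodes a zinc finger factor that is a standard readout of ERK signalling, but ERK activity was not measured in these samples. In shSC it stood at 54.8 and 71.5 CPM at Day 0, 8.23 and 8.58 CPM at Day 2, and 11.5 and 15.7 CPM at Day 4. In shCTSL it stood at 13.6 and 11.2 CPM at Day 0, 4.98 and 6.85 CPM at Day 2, and 13.2 and 11.5 CPM at Day 4. The shSC mESCs were thus the only group with a high level, while the shCTSL mESCs lay at or just below the 11.5 to 15.7 CPM of the Day 4 embryoid bodies. The Day 0 difference, which is the value the genes were chosen with and is given without a test, was a mean of 63.1 ± 11.8 CPM (SD, n = 2) in shSC against 12.4 ± 1.7 CPM in shCTSL, 5.08-fold lower. For the same reason the changes from Day 0 are descriptions: the log2 fold change at Day 2 was −2.91 in shSC and −1.06 in shCTSL, and at Day 4 it was −2.23 in shSC and −0.01 in shCTSL. The change from Day 2 to Day 4 does not contain the Day 0 levels, although the Day 0 libraries enter the spread shared by the fit. Over these days Egr1 rose 1.61-fold in shSC (log2 0.68 ± 0.21, adjusted p = 0.0348) and 2.06-fold in shCTSL (1.05 ± 0.22, adjusted p = 0.00577). The rise in shSC was no longer a call when shSC Day 0 replicate 2, either shSC Day 2 library, shSC Day 4 replicate 2 or either shCTSL Day 4 library was left out, with values of 0.45 to 0.71. The rise in shCTSL kept its call without any single library. It lost the call with limma-voom library weights (1.03, adjusted p = 0.392) and when only the libraries compared were fitted (1.04, adjusted p = 0.077).

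Egr3, a close relative of Egr1 that binds the same sites, lies at chr14:70477252-70479964 on the plus strand and was scarce throughout. Its read counts in shSC were 1 and 1 at Day 0, 19 and 11 at Day 2, and 9 and 7 at Day 4, and in shCTSL they were 6 and 3, 6 and 11, and 13 and 13. The shSC Day 0 libraries held the fewest reads, the opposite of Egr1. Egr3 passed the filter on low counts through its shCTSL Day 4 libraries, so its comparisons with that group were not independent of the filter. The increase in shSC passed the test at Day 2 (log2 2.92 ± 0.54, adjusted p = 0.000873) and at Day 4 (2.55 ± 0.59, adjusted p = 0.00437), but it rests on 2 reads at Day 0. The ratio of normalized counts was 8.28 at Day 2 (exact 95% interval 2.1 to 71.5) and 6.32 at Day 4 (1.49 to 56.6), intervals that cover counting error only. In shCTSL the values were 0.12 at Day 2 (adjusted p = 0.864) and 0.77 at Day 4 (adjusted p = 0.191). Per kilobase of exon, Egr1 exceeded Egr3 in each library. In shSC at Day 0 the ratios of 341 and 547 each rest on 1 Egr3 read and on the Egr1 level that chose the genes. In the other 10 libraries Egr1 exceeded Egr3 by 6.19 to 16.7 times.

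Of the FOS family, Fos lies at chr12:86814840-86818223 on the plus strand of mm9 and has 4 exons. Its promoter is a much studied signal-responsive sequence. The 250 bases before its RefSeq start site (chr12:86814590-86814839, plus strand, RefSeq sequence of the GRCm38.p6 build placed in mm9 by its only exact match) are shown, in the direction of transcription, because Fos rose from Day 2 to Day 4 in both lines. Capitals mark the TATA box letters TATAAA, 33 to 28 bases before the start, which 12.4% of 32851 promoters of the same length hold on either strand.
Fos: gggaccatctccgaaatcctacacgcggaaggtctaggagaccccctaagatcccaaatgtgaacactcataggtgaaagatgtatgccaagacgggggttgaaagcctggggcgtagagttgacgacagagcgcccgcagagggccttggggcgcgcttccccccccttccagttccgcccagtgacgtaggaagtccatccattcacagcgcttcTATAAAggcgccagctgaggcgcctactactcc

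In shSC, Fos stood at 3.51 and 4.15 CPM at Day 0, 2.52 and 1.84 CPM at Day 2, and 4.95 and 9.08 CPM at Day 4. Its levels in shCTSL were 2.31 and 2.42 CPM, 1.41 and 2.13 CPM, and 8.71 and 9.88 CPM. Both lines therefore had their lowest level at Day 2 and their highest at Day 4. The rise from Day 2 to Day 4 was 3.13-fold in shSC (log2 1.65 ± 0.30, adjusted p = 0.00248) and 5.14-fold in shCTSL (2.36 ± 0.31, adjusted p = 0.000413). With limma-voom library weights the rise in shCTSL was not a call (2.36, adjusted p = 0.142). At Day 4 Fos was above Day 0 in shSC (0.84 ± 0.30, adjusted p = 0.0293) and in shCTSL (1.98 ± 0.33, adjusted p = 0.000366). The shSC value rested on single libraries: it lost its call without shSC Day 0 replicate 1 (0.73) or replicate 2 (0.999) and without shSC Day 4 replicate 2 (0.36). The fall of Fos at Day 2 in shSC was close to the threshold (−0.80 ± 0.32, adjusted p = 0.0485), was lost without any of 8 single libraries (−0.60 to −1.06) and did not pass with DESeq2. In shCTSL that change was −0.39 (adjusted p = 0.385).

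Fosb, a FOS family member known for a long-lived truncated form in neurons, lies at chr7:19888070-19895394 on the minus strand. In shSC it stood at 1.14 and 0.87 CPM at Day 0, 0.27 and 0.39 CPM at Day 2, and 1.06 and 1.04 CPM at Day 4. Fosb in shCTSL measured 0.45 and 0.53 CPM, 0.37 and 0.38 CPM, and 1.24 and 1.77 CPM. Fosb thus dipped and returned in shSC, and ended above its Day 0 level in shCTSL. The Day 2 fall in shSC was 3.04-fold (log2 −1.61 ± 0.36, adjusted p = 0.00289) and the Day 4 level was near that of Day 0 (0.08, adjusted p = 0.835). The rise from Day 2 to Day 4 was 1.68 ± 0.34 in shSC (adjusted p = 0.00443) and 1.99 ± 0.33 in shCTSL (adjusted p = 0.00159). The rise in shSC lost its call without shSC Day 2 replicate 1 (1.40), and that in shCTSL with limma-voom library weights (1.92, adjusted p = 0.376). In shCTSL Fosb did not pass at Day 2 (−0.35, adjusted p = 0.605) and was 3.12-fold above Day 0 at Day 4 (1.64 ± 0.36, adjusted p = 0.0024).

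Fosl1, which encodes FRA-1 and lies at chr19:5447703-5455945 on the plus strand, had read counts in shSC of 1 and 4 at Day 0, 2 and 1 at Day 2, and 1 and 1 at Day 4. In shCTSL they were 5 and 4, 0 and 2, and 1 and 1. The most reads were in the shCTSL mESCs, and the ratio of shCTSL to shSC at Day 0 was 2.3 with an exact interval from 0.692 to 8.73. Within shCTSL the ratio of Day 2 to Day 0 was 0.128 (0.0135 to 0.619) and of Day 4 to Day 0 0.131 (0.0138 to 0.634). At this depth a difference between the lines at Day 2 or Day 4 was not detectable, with ratios of 0.889 (0.0742 to 7.76) and 0.955 (0.0692 to 13.2).

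Within the JUN family the members moved apart. Jun, the founding AP-1 subunit, is a single-exon gene at chr4:94715725-94718913 on the minus strand, and Junb, an AP-1 subunit that can restrain Jun, is a single-exon gene at chr8:87500811-87502617 on the minus strand. The 250 bases before each RefSeq start site (chr4:94718914-94719163 and chr8:87502648-87502897, both minus strand in mm9, from RefSeq as above) are shown in the direction of transcription because these genes moved in opposite directions. Capitals in Jun mark, in order, CCAAT at 65 to 61 bases before the start, TGACATCA at 45 to 38 bases, and a MEF2 site at 33 to 24 bases. TGACATCA is a match to the octamer TGACNTCA, to which JUN and ATF2 dimers are known to bind, and MEF2 proteins are factors of muscle, nerve and early response genes. Capitals in Junb mark CCAAT at 36 to 32 bases.
Jun: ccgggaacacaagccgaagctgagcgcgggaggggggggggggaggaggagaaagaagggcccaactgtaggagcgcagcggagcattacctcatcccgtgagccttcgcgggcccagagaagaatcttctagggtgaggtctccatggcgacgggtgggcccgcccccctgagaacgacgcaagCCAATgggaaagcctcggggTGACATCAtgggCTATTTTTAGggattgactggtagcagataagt
Junb: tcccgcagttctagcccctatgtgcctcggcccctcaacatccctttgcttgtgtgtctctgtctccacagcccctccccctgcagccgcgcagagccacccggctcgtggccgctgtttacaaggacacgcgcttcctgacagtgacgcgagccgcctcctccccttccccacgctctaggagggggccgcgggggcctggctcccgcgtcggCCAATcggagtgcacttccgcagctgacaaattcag

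Of 32851 promoter sequences of this length, 7.49% hold TGACNTCA, 0.103% hold that MEF2 site and 33.8% hold CCAAT on either strand. RefSeq promoters were found for 5 of the 9 members, Fos, Fosb, Jun, Junb and Ier3, and not for Egr1, Egr3, Fosl1 and Ier2. The Fosb window held GCGGGGGCG, a variant EGR site, 50 to 42 bases before the start (2.57% of promoters), and the Ier3 window held 2 copies of CCAAT. The AP-1 heptamer TGACTCA (4.46% of promoters), the CArG box, the site of serum response factor (1.47%), and the EGR site GCGTGGGCG (0.536%) had no match in these 5 windows. These are letter matches and say nothing of which factor was bound. Bases outside the windows were not searched, so a site farther from the start, such as a CArG box of Fos, would have been missed.

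Jun stood at 10.4 and 10.7 CPM in shSC at Day 0, 154 and 155 CPM at Day 2, and 195 and 142 CPM at Day 4. The shCTSL values were 12.3 and 11.3 CPM, 139 and 167 CPM, and 138 and 129 CPM. The embryoid body libraries of either line and day lay far above all 4 mESC libraries. The rise by Day 2 was 14.7-fold in shSC (log2 3.87 ± 0.17, adjusted p = 7.68e-08) and 13.0-fold in shCTSL (3.70 ± 0.17, adjusted p = 1.06e-07). Between Day 2 and Day 4 Jun did not pass the test in shSC (0.13 ± 0.15, adjusted p = 0.569), where the value became −0.12 without shSC Day 4 replicate 1, or in shCTSL (−0.20 ± 0.15, adjusted p = 0.345).

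Junb stood at 73.9 and 87.9 CPM in shSC at Day 0, 16.6 and 14.1 CPM at Day 2, and 22.6 and 23.0 CPM at Day 4. In shCTSL it stood at 65.8 and 57.0 CPM, 21.7 and 17.7 CPM, and 28.2 and 25.9 CPM. Junb was therefore high in all 4 mESC libraries and lower in all 8 embryoid body libraries. It fell 5.26-fold by Day 2 in shSC (log2 −2.40 ± 0.15, adjusted p = 6.83e-07) and 3.12-fold in shCTSL (−1.64 ± 0.15, adjusted p = 7.35e-06), and at Day 4 it was still lower than at Day 0 in both lines (log2 −1.83 and −1.18, adjusted p = 2.39e-06 and 5.36e-05). From Day 2 to Day 4 it passed the p threshold in both lines but with changes under 1.5-fold, 0.57 in shSC (adjusted p = 0.0174) and 0.46 in shCTSL (adjusted p = 0.0421). It reached 1.5-fold without shSC Day 2 replicate 1 (0.69 in shSC) or without shCTSL Day 2 replicate 1 (0.59 in shCTSL), and with offsets for exonic length in both lines (0.61 in each, adjusted p = 0.00312 and 0.00331).

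Per kilobase of exon, Junb exceeded Jun by 12.6 and 14.6 times in shSC mESCs and by 9.43 and 8.92 times in shCTSL mESCs. At Day 2 Jun exceeded Junb by 5.25 and 6.21 times in shSC and by 3.64 and 5.34 times in shCTSL. At Day 4 the ratio of Jun to Junb was 4.89 and 3.50 in shSC and 2.77 and 2.82 in shCTSL. The order of these JUN transcripts was thus inverted in all 8 embryoid body libraries relative to the 4 mESC libraries.

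**Figure D2:**
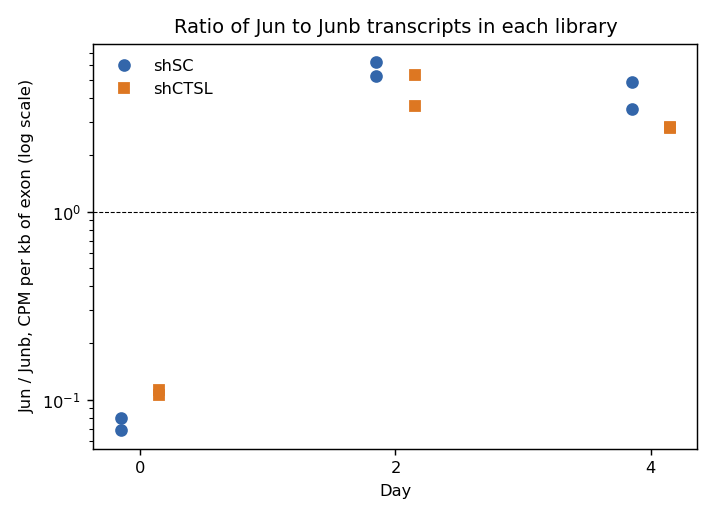
Ratio of Jun to Junb transcript levels per kilobase of exon (y axis, log scale) at each day (x axis), 1 point per library, shSC as circles and shCTSL as squares, with a dashed line at a ratio of 1. The 4 Day 0 libraries lie between 0.0686 and 0.112 and the 8 later libraries between 2.77 and 6.21.

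Ier2, a small early response protein of the nucleus and cytoplasm, is a single-exon gene at chr8:87185230-87186751 on the minus strand. It stood at 266 and 275 CPM in shSC at Day 0, 133 and 122 CPM at Day 2, and 94.9 and 105 CPM at Day 4. For shCTSL the levels were 254 and 204 CPM, 241 and 135 CPM, and 110 and 123 CPM. The Day 2 shCTSL replicates lay far apart, replicate 1 within the range of the mESC libraries and replicate 2 just above the Day 2 shSC libraries. Ier2 fell in shSC by Day 2 (log2 −1.08 ± 0.23, adjusted p = 0.00182) and by Day 4 (−1.43 ± 0.23, adjusted p = 0.000271), and in shCTSL by Day 4 (−0.97 ± 0.23, adjusted p = 0.0032). In shCTSL at Day 2 it did not pass (−0.29 ± 0.22, adjusted p = 0.286), a value that became −0.72 and a call (adjusted p = 5.39e-05) without shCTSL Day 2 replicate 1 and 0.07 without replicate 2. The fall from Day 2 to Day 4 in shCTSL (−0.69 ± 0.22, adjusted p = 0.0421) was lost when any of 11 of the 12 libraries was left out, with values of −0.24 to −0.77, and was under 1.5-fold with offsets for exonic length (−0.46).

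Ier3, also called IEX-1 and known for a role in cell survival under stress, lies at chr17:35958629-35959868 on the plus strand. It stood at 2.59 and 3.34 CPM in shSC at Day 0, 2.32 and 2.10 CPM at Day 2, and 7.91 and 4.23 CPM at Day 4. In shCTSL it stood at 3.28 and 3.68 CPM, 2.83 and 1.49 CPM, and 5.03 and 4.47 CPM. The Day 4 libraries of both lines lay above all others, with a wide gap between the shSC replicates. From Day 2 to Day 4 Ier3 rose 2.78-fold in shSC (log2 1.47 ± 0.33, adjusted p = 0.00719) and 2.26-fold in shCTSL (1.17 ± 0.35, adjusted p = 0.0286). The first was lost without shSC Day 2 replicate 2 (1.40) or shSC Day 4 replicate 1 (0.93). The second was lost without shCTSL Day 2 replicate 2 (0.74) or either shCTSL Day 4 library (1.08 and 1.25). With limma-voom library weights the rise in shCTSL was not a call (1.265, adjusted p = 0.42). Nor was it one when only the libraries compared were fitted (1.146, adjusted p = 0.134). Against Day 0 Ier3 was higher at Day 4 in shSC (1.05 ± 0.34, adjusted p = 0.0184) and did not pass in shCTSL (0.45, adjusted p = 0.269). The call in shSC was lost without shSC Day 0 replicate 1 (0.88) or shSC Day 4 replicate 1 (0.50). At Day 2 the values were −0.43 in shSC (adjusted p = 0.315) and −0.72 in shCTSL (adjusted p = 0.118). Without shCTSL Day 2 replicate 1 the latter became −1.17 and a call (adjusted p = 0.0107).

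Counted over the family, with Egr1 left out of comparisons with Day 0, 6 of 7 tested members were called between Day 2 and Day 0 in shSC, Egr3 and Jun higher and Fos, Fosb, Junb and Ier2 lower. Of all genes tested, 54.6% were called in that comparison, 29.3% higher and 25.3% lower. In shCTSL 2 of 7 were called, Jun higher and Junb lower, where 55.5% of all genes were, 30.9% higher and 24.6% lower. That count became 4 without shCTSL Day 2 replicate 1. Whether the Day 2 change differed between the lines was not tested, since it contains the Day 0 contrast that the choice of genes used. Between Day 4 and Day 0, 6 of 7 members were called in shSC, 4 higher and 2 lower, where 60.7% of all genes were called, 32.1% higher and 28.7% lower. In shCTSL 5 of 7 were called, 3 higher and 2 lower, where 59.9% of all genes were, 32.3% higher and 27.6% lower. Against backgrounds of this size the counts say little about the family, and they share the Day 0 libraries with the contrast that chose it.

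Between Day 4 and Day 2 fewer genes moved. In shSC 4 of 8 tested members were called, Egr1, Fos, Fosb and Ier3, all 4 higher, where 23.8% of all genes were called, 11.4% higher and 12.4% lower. In shCTSL the same 4 members rose and Ier2 fell, 5 of 8, where 23.4% of all genes were called, 11% higher and 12.4% lower. The shSC count became 2 without shSC Day 2 replicate 2. The shCTSL count became 3 without either shCTSL Day 4 library, 2 when only those 4 libraries entered the fit and 0 with limma-voom library weights.

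**Figure D3:**
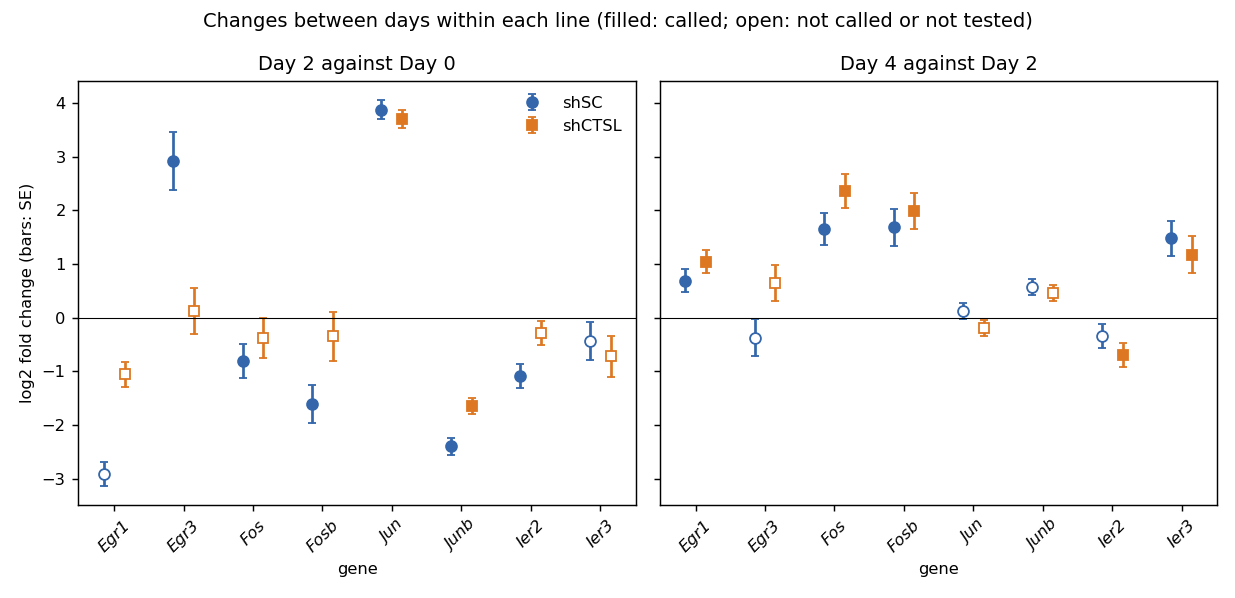
Log2 fold changes with SE (y axis) of the 8 tested members (x axis) from Day 0 to Day 2 and from Day 2 to Day 4, in shSC (circles) and shCTSL (squares). Filled symbols passed the test and open symbols did not or, for Egr1 against Day 0, were not tested, with Jun at 3.87 and 3.70 in the left panel and Fos at 1.65 and 2.36 and Fosb at 1.68 and 1.99 in the right.

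The comparison of shCTSL with shSC asks whether the loss of cathepsin L goes with other levels of these genes. At Day 0, a description only, the knockdown libraries were under both controls for Egr1, Fos, Fosb, Junb and Ier2 and above them for Egr3, Fosl1 and Jun, while Ier3 overlapped. Over all genes 51.3% did not overlap in the same way. The log2 differences were −2.35 ± 0.22 (SE) for Egr1, −1.04 ± 0.40 for Fosb, −0.70 ± 0.35 for Fos, −0.40 ± 0.15 for Junb and −0.24 ± 0.22 for Ier2. They were 0.17 ± 0.17 for Jun and 0.21 ± 0.37 for Ier3. Egr3 had 9 reads against 2, a ratio of 5.75 with an exact interval from 1.19 to 54.7.

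At Day 2 no tested member was called, where 0.0644% of all genes were. At an unadjusted p under 0.05 there were 3 of the 8 members and 3014 of the 15532 genes, and DESeq2 called no member and 123 genes. Egr1 was 8.40 ± 0.25 CPM (SD, n = 2) in shSC and 5.92 ± 1.32 CPM in shCTSL, a log2 difference of −0.49 ± 0.22 (SE, adjusted p = 0.257). Junb was 15.4 ± 1.7 CPM against 19.7 ± 2.8 CPM (0.35 ± 0.15, adjusted p = 0.247). Ier2 was 127 ± 7 CPM against 188 ± 75 CPM (0.56 ± 0.22, adjusted p = 0.234). Libraries of the lines did not overlap for these genes or for Egr3, 4 of the 8 tested members, against 45.5% of all genes. The result rested on the divergent pair: without shCTSL Day 2 replicate 2, Egr1 (−0.76, adjusted p = 0.0176) and Ier2 (0.92, adjusted p = 5.05e-06) became calls. Without replicate 1, neither did, with Egr1 at −0.28 (adjusted p = 0.559), Junb at 0.21 (adjusted p = 0.513) and Ier2 at 0.09 (adjusted p = 0.744). With offsets for exonic length Junb was at 0.11 and Ier2 at 0.22. The sum of 5 endothelial and blood markers also lay apart at Day 2, at 133 to 143 CPM in shSC and 43.1 to 77.0 CPM in shCTSL, although none was called, and its part in these values was not tested.

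At Day 4 no tested member was called either, where 0.0129% of all genes were. At an unadjusted p under 0.05 there were 1 member, Jun, and 1897 genes, and DESeq2 called no member and 132 genes. Jun was 168 ± 37 CPM in shSC and 133 ± 6 CPM in shCTSL (log2 −0.34 ± 0.15, adjusted p = 0.404). Egr1 was 13.6 ± 3.0 CPM against 12.3 ± 1.2 CPM (−0.13 ± 0.21, adjusted p = 0.764), a difference within the spread between replicates and one that became 0.10 without shSC Day 4 replicate 2. Fos was 7.01 ± 2.92 CPM against 9.30 ± 0.83 CPM (0.43 ± 0.28, adjusted p = 0.503) and Fosb 1.05 ± 0.01 CPM against 1.51 ± 0.37 CPM (0.52 ± 0.28, adjusted p = 0.455). Libraries did not overlap for Egr3, Fosb, Junb and Ier2, higher in shCTSL, and for Jun, lower. These were 5 of the 8 tested members, against 61.5% of all genes. Egr3 passed the filter on low counts through its shCTSL Day 4 libraries, so its place in that count was not independent of its level there. No single library, when left out, gave a call.

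The change from Day 2 to Day 4 did not differ detectably between the lines. No member was called in the test of that difference, 0% of all genes were, and no member and 753 genes had an unadjusted p under 0.05. DESeq2 called no member and 8 genes. The differences ran from −0.34 ± 0.32 for Ier2 to 1.02 ± 0.48 for Egr3 on the log2 scale, with 0.36 ± 0.31 for Egr1 and 0.71 ± 0.44 for Fos. Without shCTSL Day 2 replicate 2 the Ier2 difference became −0.69 and a call (adjusted p = 0.00366), and without replicate 1 it became 0.14.

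**Figure D4:**
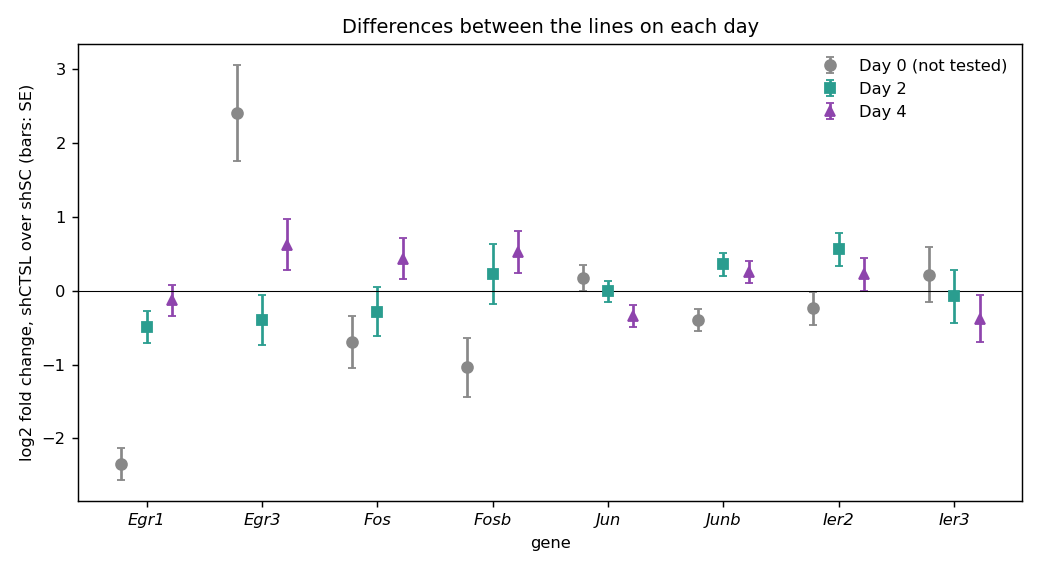
Log2 fold change of shCTSL over shSC with SE (y axis) for each tested member (x axis) at Day 0 (circles, not tested), Day 2 (squares) and Day 4 (triangles). Egr1 at −2.35 and Egr3 at 2.41, the latter on 9 reads against 2, stand out at Day 0, and all values at Days 2 and 4 lie between −0.49 and 0.62.

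Levels of the members can be ordered per kilobase of exon. In shSC mESCs Ier2 led at 178 ± 4 CPM per kb (SD, n = 2), followed by Junb at 44.8 ± 5.5, Egr1 at 20.4 ± 3.8, Jun at 3.30 ± 0.06 and Ier3 at 2.62 ± 0.47, with Fos at 1.63 ± 0.19 and Fosb, Fosl1 and Egr3 below 0.3. In shCTSL mESCs Egr1, at 3.99 ± 0.55 CPM per kb, ranked beside Jun at 3.70 ± 0.23, which it exceeded by less than its spread, and above Ier3 at 3.08 ± 0.25. At Day 4 in shSC the order was Ier2 at 65.8 ± 4.8, Jun at 52.8 ± 11.6, Junb at 12.6 ± 0.2, and then Ier3 at 5.36 ± 2.3, Egr1 at 4.38 ± 0.95 and Fos at 2.98 ± 1.24 CPM per kb, the last 3 overlapping in their spread.

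Across the 12 libraries, the genes whose log2 CPM was most like that of Egr1 were Gpt2 (r = 0.97), Fjx1 (0.96), Adgrl1 (0.94), Zcchc3 (0.92) and Mcc (0.92). Gpt2, a mitochondrial alanine aminotransferase, averaged 158 CPM in shSC mESCs, 97.0 CPM in shCTSL mESCs and 66.4 to 90.3 CPM in embryoid bodies. Its shCTSL mESCs lay above every embryoid body group, which those of Egr1 did not. For Jun they were Rgma (0.997), Gas1 (0.997) and Fam134b (0.997), and Gas1, a growth arrest gene, went from 1.55 CPM to 310 CPM by Day 2 in shSC. For Fos they were Pde2a (0.94), Nbeal2 (0.94) and Wisp1 (0.93). Within the family, r was −0.95 between Jun and Junb, 0.88 between Fos and Fosb and 0.78 between Egr1 and Junb. These correlations are descriptions over libraries that share 3 days and 2 lines, and the highest of many genes was taken.

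Other genes of the immediate early response were counted in the same way. Of 50 tested genes in a list of 52 other immediate early and early response genes, 16 rose and 16 fell by Day 2 in shSC, and 16 rose and 17 fell in shCTSL, where 54.6% and 55.5% of all genes were called. The median log2 change was −0.18 and −0.16, against 0.02 and 0.08 over all genes. Those that rose included Atf3, an AP-1 related stress factor (2.72 in shSC and 2.49 in shCTSL), and Id3, an inhibitor of differentiation factors (2.46 and 2.89). Those that fell included the pluripotency factors Klf4 (−3.81 and −3.57) and Myc (−3.21 and −2.68) and the neuronal early gene Arc (−2.88 and −2.74).

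Between Day 2 and Day 4, 13 of these 50 genes rose and 10 fell in shSC and 16 rose and 9 fell in shCTSL, where 23.8% and 23.4% of all genes were called, with medians of 0.15 and 0.22 against 0.02 and −0.02 over all genes. Fosl2, which encodes the FOS family member FRA-2, rose by 2.93 in shSC and 2.90 in shCTSL on the log2 scale. Its levels were 9.32 and 7.57 CPM at Day 2 and 71.5 and 57.1 CPM at Day 4 in shSC, and 5.04 and 9.91 CPM and 61.7 and 51.6 CPM in shCTSL. Dusp1, a phosphatase that turns off MAP kinases, rose too (1.43 and 1.38), while Dusp6, the phosphatase of ERK, fell (−1.84 and −1.67), as did Atf3 (−1.92 and −1.75). Between the lines, 0 of the 50 were called at Day 2, Day 4 or in the difference of changes. Of all genes 0.0644%, 0.0129% and 0% were called there. Unadjusted p-values under 0.05 went to 10, 18 and 7 of the 50, beside 3014, 1897 and 753 of all 15532 genes. The list had median log2 differences of 0.016, 0.198 and 0.107, against 0.017, −0.005 and −0.021 over all genes. Its median was thus higher in shCTSL at Day 4, and whether the list differed as a set was not tested.

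Of 24 upstream factors and kinases, 6 rose and 3 fell by Day 2 in shSC and 4 rose and 5 fell in shCTSL, where 54.6% and 55.5% of all genes were called, and none was called between the lines at Day 2 or Day 4 (8 and 1 at an unadjusted p under 0.05). At Days 2 and 4 the median log2 differences of this list between the lines were −0.34 and −0.14, against 0.02 and −0.005 over all genes. By Day 2 the medians of the changes from Day 0 were 0.01 in shSC and −0.16 in shCTSL, against 0.02 and 0.08 over all genes. Mef2c, of the MEF2 family, rose by 3.96 in shSC and 2.58 in shCTSL on the log2 scale. Its Day 0 libraries held only 2 and 3 reads in shSC and 3 and 3 in shCTSL. Elk3, a ternary complex factor, rose by 1.20 and 0.69, and Stat3, the effector of LIF, fell (−1.41 and −1.21). Of 13 tested partners and repressors in a list of 14, 4 rose and 2 fell by Day 2 in shSC. In shCTSL 4 rose and 3 fell, where 54.6% of all genes were called in shSC and 55.5% in shCTSL. The medians were 0.19 and −0.03, beside 0.02 and 0.08 over all genes. The AP-1 related factor Maf rose (5.26 and 4.63), from 1 and 3 reads in shSC and 5 and 0 in shCTSL at Day 0. Jdp2, a repressor of AP-1, fell (−1.70 and −1.21). Nab2, a corepressor of EGR proteins, rose between Day 2 and Day 4 in shCTSL (0.64, adjusted p = 0.0138) and did not pass in shSC (0.32, adjusted p = 0.166), and the difference between these changes did not pass either (0.32, adjusted p = 1).

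Heat shock genes, whose transcripts also respond quickly to stress, were followed beside the family. Of 12, 1 rose and 8 fell by Day 2 in each line, with medians of −1.23 in shSC and −1.01 in shCTSL, where 25.3% and 24.6% of all genes fell and the medians over all genes were 0.02 and 0.08. Between Day 2 and Day 4 1 rose in shSC and 1 fell in shCTSL. At Day 0 their sum was 13770 to 14460 CPM in shSC and 14570 to 14670 CPM in shCTSL, of which Hsp90ab1, named after its values were seen, made up 9426 to 10030 CPM. The inducible Hspa1b, likewise, stood at 6.40 and 7.18 CPM in shSC and at 9.84 and 8.74 CPM in shCTSL at Day 0, and its part in the Egr1 values was not tested. None was called between the lines at Day 2 or Day 4 (4 and 1 at an unadjusted p under 0.05).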

How the data were processed

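Poly(A) RNA of 12 libraries was sequenced from directional libraries. The authors used STAR 2.3.0e for alignment to mm9 and SAMtools 0.1.19 to drop alignments of mapping quality below 10 or off the nuclear chromosomes, and deposited read counts per RefSeq gene from featureCounts 1.6.2, without normalization. The sources used here do not say whether counting used the strand.

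The counts as deposited were fitted over all 12 libraries with edgeR 4.0.16 in R 4.3.3 (TMM scaling, filterByExpr with a minimum count of 10, quasi-likelihood test, a mean for each of the 6 groups). P-values were adjusted by Benjamini-Hochberg over all 15532 genes tested, and the study's cutoff was read as 1.5-fold. Alternatives were DESeq2 1.42.0, limma 3.58.1 (voom), other scaling, filters, cutoffs and fits, and each library left out. Exonic lengths and positions came from GENCODE M1 on mm9. The members and lists were chosen with earlier results of these data known. Named were all 9 members, Ctsl, genes called in a list (at most 4 of largest change in each direction), and the 5 genes most like Egr1 and 3 most like Fos and Jun by Pearson r. Scripts were tested on simulated counts. Depth limits Egr3 and Fosl1, and exact 95% intervals cover counting error only.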

Additional observations from a re-analysis of the deposited data

How the results depend on the processing

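With 2 libraries in each group, calls rested on a spread shared by all 12. A log2 cutoff of 1.5 left 3 members called between Day 4 and Day 0 in each line and 2 between Day 4 and Day 2 in each line. The limma-voom fit called 0 members between Day 4 and Day 2 in shCTSL, and the fit of only the libraries compared called 2. With single libraries left out, the counts ranged from 2 to 4 between Day 4 and Day 2 in shSC, from 2 to 4 between Day 2 and Day 0 in shCTSL, from 3 to 5 between Day 4 and Day 2 in shCTSL, from 0 to 2 between the lines at Day 2 and from 0 to 1 for the difference in the change. The sources used here do not pair the samples by replicate number, and no pairing was fitted. Deviations between replicates correlated over 0.1 in 4 of 15 pairs of groups (−0.659 to 0.37). With values of both signs this does not settle whether libraries shared a batch. A replicate block left counts of 6, 6 and 4 in shSC and of 2, 5 and 4 in shCTSL, and 0 in the comparisons of the lines, and the lost call was Ier2 between Day 4 and Day 2 in shCTSL (−0.66).

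Over 72 changes of single members and 1427 values under the alternatives, 1351 stayed the same, 49 lost a call and 9 gained one. Staying the same meant keeping direction and side of the threshold. For Egr1 against Day 0, which was not tested, it meant a shift below the SD between replicates, and 2 values there moved by more. In 16 the sign turned, each when 1 library was left out and each for a change that was not called. With single libraries left out, these values ranged between days from −0.10 to 0.27 for Fosb at Day 4 against Day 0 in shSC, from −0.12 to 0.33 for Jun at Day 4 against Day 2 in shSC, and at Day 2 against Day 0 in shCTSL from −0.083 to 0.42 for Egr3 and from −0.72 to 0.074 for Ier2. Between the lines they ranged from −0.065 to 0.49 for Fosb, from −0.15 to 0.12 for Jun and from −0.57 to 0.34 for Ier3 at Day 2, and from −0.35 to 0.099 for Egr1 and from −0.74 to 0.16 for Ier3 at Day 4. For the difference in the change they ranged from −0.24 to 0.05 for Junb, from −0.695 to 0.14 for Ier2 and from −0.75 to 0.24 for Ier3. The cause was not tested.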
